A study of Mus musculus with 4 samples.

Results

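Immediate early genes are genes whose transcription rises within minutes of a stimulus without the need for newly made protein. Followed here were 10 such genes in the mouse cerebral cortex at embryonic day 15 (E15): Fos, Fosb, Jun, Junb, Egr1, Ier2, Nr4a1, Btg2, Dusp1 and Arc. They were chosen by name, and all 10 were among the 13289 genes of the count table and passed the filter on low counts. The study sequenced polyadenylated RNA of whole cortex taken fresh from control embryos and from embryos with a conditional knockout of Lhx2, labelled Lhx2cKO, with 2 libraries in each group. The controls are titled WT and described as control. The labels give neither the Cre driver nor the allele, strain or sex, and do not say whether a library came from 1 embryo or a pool. P-values therefore measure the spread between these libraries, which may be technical. In edgeR, used for the main test, that spread is drawn largely from a trend over all genes (prior degrees of freedom 38.7). The p of a member thus rests only in small part on the gap between its own libraries.

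Growth factors, calcium entry and stress reach these genes through the MAP kinases and through the transcription factors SRF, its ternary complex partners such as ELK1, and CREB, which are already present in the cell before the stimulus. Many of the products are transcription factors that pass the signal on, and others, such as DUSP1, switch it off. In the brain the genes are best known as markers of neuronal activity, and they also respond to the handling of tissue.

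The libraries held 22294237 to 24609627 counts over the genes analysed, and mitochondrial transcripts took 10.02% to 12.9% of them. Lhx2, the targeted gene, was at 316 and 287 CPM (read counts scaled to library size with TMM factors) in control and at 239 and 247 CPM in Lhx2 cKO. Its log2 fold change was -0.31 (SE 0.098, adjusted p 0.0191 in edgeR's quasi-likelihood test), so most of its transcript was still counted in the Lhx2 cKO libraries, and the call was kept in 1 of the 4 fits that left out a library. All 7 markers of cortical identity listed were detected in every library. Of these, 4 were called lower, Emx1 among them at -1.54 on the log2 scale, and 2 were called lower without control 1, without Lhx2 cKO 1 or without Lhx2 cKO 2.

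The stretches of DNA before the start sites of 4 members are shown because they carry the CREB recognition core, TGACG, in different numbers and forms. They are the 250 bases before the start site in RefSeq's annotation of GRCm38.p6, 5′ to 3′, with TGACG and its reverse complement CGTCA in capitals. The Fos stretch lies at chr12:85473640-85473889 on the plus strand, that of Junb at chr8:84978749-84978998 on the minus strand, that of Dusp1 at chr17:26508473-26508722 on the minus strand and that of Btg2 at chr1:134079156-134079405 on the minus strand. The read counts themselves carry no coordinates.
Fos: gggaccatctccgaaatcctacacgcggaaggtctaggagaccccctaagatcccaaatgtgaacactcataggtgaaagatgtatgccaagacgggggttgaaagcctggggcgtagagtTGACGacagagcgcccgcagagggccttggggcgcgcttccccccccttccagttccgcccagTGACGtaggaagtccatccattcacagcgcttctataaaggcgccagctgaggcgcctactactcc
Junb: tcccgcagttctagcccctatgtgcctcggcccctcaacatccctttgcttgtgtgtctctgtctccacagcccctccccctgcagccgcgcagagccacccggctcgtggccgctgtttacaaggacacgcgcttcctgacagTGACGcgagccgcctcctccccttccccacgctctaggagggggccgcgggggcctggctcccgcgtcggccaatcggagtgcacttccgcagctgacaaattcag
Dusp1: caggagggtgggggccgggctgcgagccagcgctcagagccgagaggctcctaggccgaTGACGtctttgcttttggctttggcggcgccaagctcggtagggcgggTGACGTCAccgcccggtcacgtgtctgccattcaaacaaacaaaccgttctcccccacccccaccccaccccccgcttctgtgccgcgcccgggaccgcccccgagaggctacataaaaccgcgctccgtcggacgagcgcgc
Btg2: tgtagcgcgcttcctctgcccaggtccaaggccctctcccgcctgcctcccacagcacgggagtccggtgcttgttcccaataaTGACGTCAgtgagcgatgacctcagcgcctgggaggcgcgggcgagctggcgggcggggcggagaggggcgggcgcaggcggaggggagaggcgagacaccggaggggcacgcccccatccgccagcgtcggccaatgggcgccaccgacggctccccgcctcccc
In Fos the core begins at positions -129 and -66 from the start site, and in Junb at -106. In Dusp1 and Btg2 both strands meet in the full palindrome TGACGTCA, which begins at -143 in Dusp1 and at -166 in Btg2, and Dusp1 holds 1 further core at -191. Promoter windows of 300 bases (250 before and 50 after the start site) were found for 7 of the 10 members. Those of Egr1, Ier2 and Arc were not matched. Of the 7, all but Jun held TGACG on either strand, with 4 copies for Nr4a1, against 30.2% of the 13482 windows of genes in the count table. The palindrome TGACGTCA, which contains the core, was present in 3.0% of those windows. The EGR motif GCGNGGGCG was found on either strand for Btg2, Fosb and Nr4a1 and in 10.7% of the windows. The AP-1 motif TGANTCA and the CArG box bound by SRF were in 0 of the 7 member windows and in 4.80% and 1.33% of the windows respectively. DNA outside the windows was not searched, so either motif may lie farther from a start site or at a member without a window. The matches are described by their letters alone, and binding was not measured.

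Lhx2 cKO was compared with control to see how far the levels of these genes depend on the genotype of the cortex. Of the 10 immediate early genes, 7 were called higher in Lhx2 cKO (adjusted p under 0.05 in edgeR): Fos, Junb, Egr1, Nr4a1, Fosb, Dusp1 and Ier2. Jun, Btg2 and Arc did not pass the threshold. In edgeR, DESeq2 and limma-voom 0 members were called lower, and at an unadjusted p under 0.05 Btg2 would be (p 0.0132). Over all 13288 genes tested, 20.8% were called, 11.6% higher and 9.17% lower. The called members rose between 1.23-fold (Ier2) and 2.15-fold (Fos). The median log2 fold change of the 10 genes was 0.40, against 0.003 over all genes tested. In 9 members both Lhx2 cKO libraries lay above both control libraries, a pattern that 30.2% of all genes showed, and in Btg2 both lay below, as for 29.1% of all genes. The groups were thus apart in 10 of 10 members and in 59.3% of all genes.

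**Figure D1:**
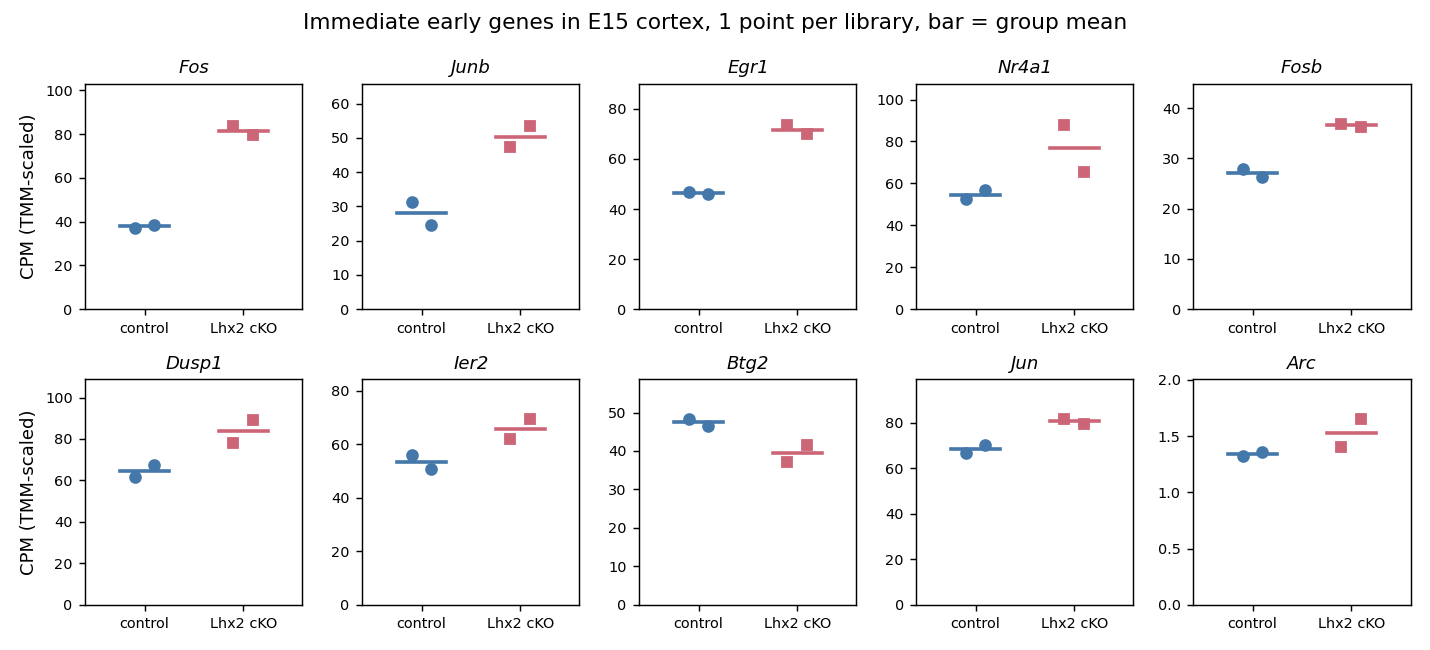
Level of each immediate early gene in CPM (TMM-scaled) in each of the 4 libraries, with control as circles, Lhx2 cKO as squares and the mean of a group as a bar. The groups do not overlap in any panel. Btg2 is the panel in which Lhx2 cKO lies below control, and the Lhx2 cKO libraries are farthest apart for Nr4a1, at 87.9 and 65.5 CPM.

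Fos, Fosb, Jun and Junb encode subunits of AP-1, a dimer in which a FOS protein pairs with a JUN protein or 2 JUN proteins pair. Fos, the most widely used marker of recent stimulation, measured 37.2 and 38.5 CPM in control against 83.5 and 79.4 CPM in Lhx2 cKO. Both knockout libraries lay far above both controls, and the libraries of a group were close together. Fos rose by 1.10 on the log2 scale (SE 0.101, adjusted p 2.09e-11), the largest change among the members. By p it ranked 66 of the 13288 genes tested. Its increase of at least 2-fold, with a call, was shared by 2.44% of all genes and by 0 other members.

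Fosb, a close relative of Fos, was at 27.9 and 26.3 CPM in control and at 36.9 and 36.3 CPM in Lhx2 cKO. The log2 fold change was 0.43 (SE 0.111, adjusted p 0.00365 in edgeR), and the libraries of Lhx2 cKO were nearly equal. Junb, a JUN protein that often acts against JUN in cell growth, was at 31.2 and 24.7 CPM in control and at 47.2 and 53.4 CPM in Lhx2 cKO. Its controls were the most spread of any member, yet the groups stayed apart. It rose by 0.85 (SE 0.114, adjusted p 2.13e-07), or by 0.69 to 1.02 when 1 library was left out.

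Jun, the founding JUN protein, was at 66.5 and 70.1 CPM in control and at 81.8 and 79.4 CPM in Lhx2 cKO. Its log2 fold change of 0.24 (95% interval 0.04 to 0.44, unadjusted) did not pass the threshold after adjustment over all genes (adjusted p 0.0757 in edgeR). Exons of Jun overlap the antisense gene Junos, and those of Junb overlap Prdx2 on the other strand, and the use of strand in counting is not given. Prdx2, an antioxidant enzyme gene, was at 516 and 541 CPM in control and at 526 and 544 CPM in Lhx2 cKO. Its log2 fold change was 0.02 (adjusted p 0.929 in edgeR). How many reads Junb and Prdx2, or Jun and Junos, share was not tested.

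**Figure D2:**
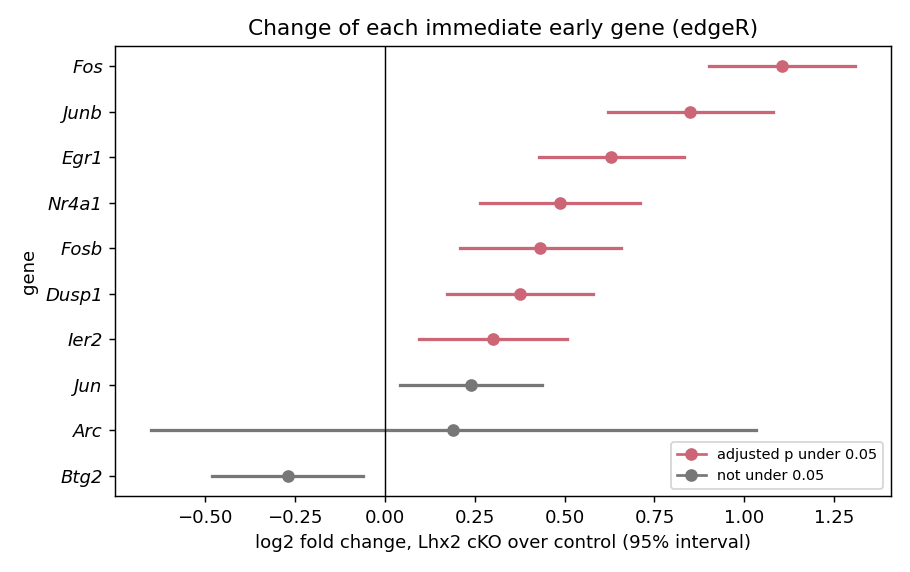
Log2 fold change of Lhx2 cKO over control for each immediate early gene, with its 95% interval (not adjusted for the number of genes) from edgeR, and genes under an adjusted p of 0.05 in red. Fos is at 1.10 at the top and Btg2 at -0.27 at the bottom, and the interval of Arc is the widest, from -0.65 to 1.03.

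Set beside the other FOS and JUN genes with data, the members made up a larger part of the AP-1 transcripts in Lhx2 cKO. Levels of different genes are compared here per length, as RPKM (CPM per kilobase of the deposited gene length), over Fos, Fosb, Fosl2, Jun, Junb and Jund. Fos accounted for 9.27% and 12.2% of the summed RPKM in the control libraries and for 23.2% and 21.1% in the Lhx2 cKO libraries. Junb went from 7.93% and 7.97% to 13.4% and 14.5%, whereas the share of Jun was 12.2% and 16.3% in control against 16.7% and 15.6% in Lhx2 cKO. The share of Jund, a JUN gene expressed steadily in most cells, was 67.6% and 60.1% in control against 42.5% and 44.7% in Lhx2 cKO. The ratio of FOS to JUN family RPKM was 0.139 and 0.185 in control against 0.376 and 0.335 in Lhx2 cKO. The groups did not overlap in this ratio or in the shares of Fos, Fosb, Junb and Jund, and did overlap in those of Jun and Fosl2.

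Jund itself was at 193 and 135 CPM in control and at 109 and 119 CPM in Lhx2 cKO. It was called lower, at -0.52 on the log2 scale (adjusted p 4.61e-04), but its controls differed widely. Without control 1 the log2 fold change was -0.26 (adjusted p 0.142), and DESeq2 gave an adjusted p of 0.163. The summed RPKM of the 6 genes was 171 in control 1 and 135 in control 2, with the values of Lhx2 cKO, 153 and 160, between them.

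**Figure D3:**
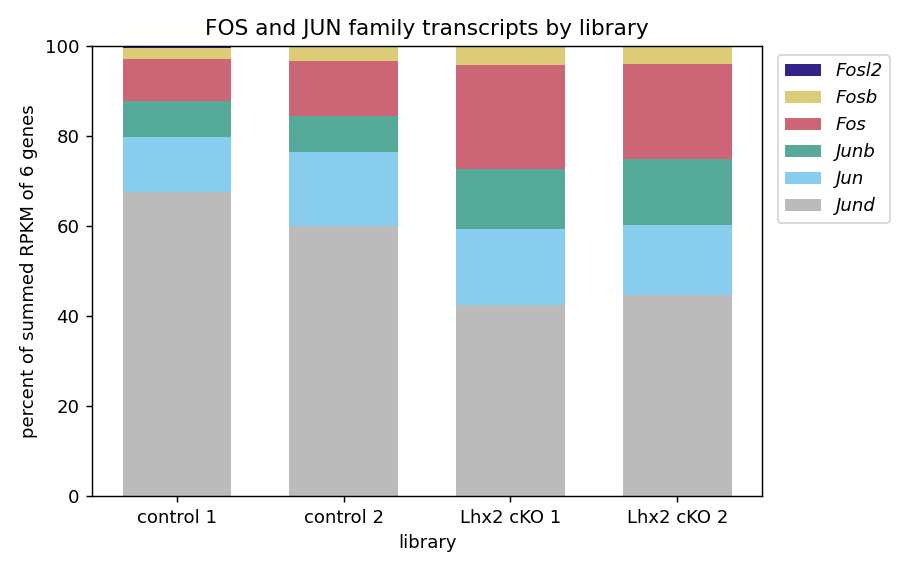
Percent of the summed RPKM of 6 FOS and JUN family genes taken by each gene, with 1 stacked bar per library. Fos takes 9.27% and 12.2% in the control bars and 23.2% and 21.1% in the Lhx2 cKO bars, and Jund takes the largest part of every bar.

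Egr1 and Nr4a1 encode DNA-binding proteins of other families, a zinc finger factor and an orphan nuclear receptor. Egr1 was at 46.6 and 46.1 CPM in control and at 73.7 and 69.8 CPM in Lhx2 cKO. The controls were almost identical, and both knockout libraries lay well above them. Egr1 rose by 0.63 on the log2 scale (SE 0.0998, adjusted p 5.75e-06). Nr4a1 was at 52.7 and 56.6 CPM in control and at 87.9 and 65.5 CPM in Lhx2 cKO. Lhx2 cKO 1 was far above the controls and Lhx2 cKO 2 only moderately so. The log2 fold change of Nr4a1 was 0.49 (SE 0.11, adjusted p 9.51e-04), but it was 0.26 without Lhx2 cKO 1 (adjusted p 0.147) and 0.68 without Lhx2 cKO 2 (adjusted p 1.82e-06). The size of the Nr4a1 change thus rested on Lhx2 cKO 1.

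Arc, whose product regulates glutamate receptor trafficking at synapses and which is a standard marker of active mature neurons, was scarcely present. It had 32 and 34 counts in control and 32 and 38 counts in Lhx2 cKO, or 1.32, 1.36, 1.41 and 1.65 CPM. Arc did not pass the threshold, with a log2 fold change of 0.19 and a 95% interval from -0.65 to 1.03 (adjusted p 0.796 in edgeR). At these counts the counting error of a single library alone was up to 17.7%, so a change of the size seen for Fos was barely outside the interval and one of the size seen for Junb was within it.

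Ier2, Dusp1 and Btg2 act in feedback and growth control. Ier2, a nuclear protein of short half-life, was at 55.8 and 50.6 CPM in control and at 61.9 and 69.2 CPM in Lhx2 cKO. The gap between the groups was about as wide as the gap within them. Its log2 fold change of 0.30 (SE 0.102) had an adjusted p of 0.0296 in edgeR and was called in 8 of 12 alternative fits. Among these, library totals gave an adjusted p of 0.0504, DESeq2 0.0702, the fit without control 2 0.21 and the fit without Lhx2 cKO 2 0.321.

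Dusp1, the phosphatase that inactivates MAP kinases and so ends the signal, was at 61.7 and 67.3 CPM in control and at 78.2 and 89.2 CPM in Lhx2 cKO. It rose by 0.38 on the log2 scale (SE 0.1, adjusted p 0.00519), though the adjusted p was 0.0862 without control 1 and 0.147 without Lhx2 cKO 2. Exons of Dusp1 overlap Ergic1 on the other strand, and Ergic1 was also called higher, at 0.34 (adjusted p 0.00884). How many reads the pair shares was not tested.

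Btg2, an antiproliferative gene that in the cortex marks progenitors about to produce neurons, went the other way. It was at 48.3 and 46.6 CPM in control and at 37.2 and 41.5 CPM in Lhx2 cKO, so that both knockout libraries lay below both controls. Its log2 fold change of -0.27 (95% interval -0.48 to -0.06, unadjusted) did not pass the threshold (adjusted p 0.0596 in edgeR), and Btg2 passed in 0 of the 12 alternative fits. Among these the log2 fold change lay between -0.35 and -0.19. In the authors' deposited table the adjusted p of Btg2 was 0.0635. The authors' deposited table marks Fos, Junb and Egr1 as up and the other 7 members as not significant. For 4 of these 7, however, the adjusted p in the authors' deposited table was under 0.05: Nr4a1 (7.11e-04), Fosb (0.00416), Dusp1 (0.00589) and Ier2 (0.0418). The mark therefore does not rest on that p at 0.05 alone.

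The order of the members by level was different in the 2 groups. Per length, Ier2 was the highest in control at 34.9 ± 2.44 RPKM (SD, n = 2), followed by Jun (21.4), Dusp1 (19.5), Btg2 (17.3), Fos (16.1), Nr4a1 (15.6), Junb (12.1), Egr1 (10.3), Fosb (4.34) and Arc (0.438). Of these neighbours, only Fos and Nr4a1 overlapped in their libraries. In Lhx2 cKO Ier2 was again first at 43.01 ± 3.40 RPKM (SD, n = 2) and Fos was second at 34.6 ± 1.26 RPKM. Dusp1 and Jun came next at 25.3 RPKM each and overlapped, as did Junb and Nr4a1 at 21.9 RPKM each. Egr1 at 16.0 RPKM stood above Btg2 at 14.3, and Fosb (5.86) and Arc (0.501) were again last. Fos thus moved from the fifth place to the second and Btg2 from the fourth to the eighth. Among all genes tested, the mean RPKM of Ier2 was at the percentile 91.6, that of Fosb at 46.6 and that of Arc at 5.80.

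The spread between the libraries of a group differed from member to member. The absolute log2 ratio of the replicates had a median of 0.080 over the 10 members in control and 0.159 in Lhx2 cKO, against 0.133 and 0.134 over all genes tested. Over the 3058 genes whose mean CPM lay in the same range as the members other than Arc, it was 0.103 and 0.101. With TMM the members' median was thus below both values in control and above both in Lhx2 cKO. With library totals alone the members' median was 0.099 in control, against 0.142 over all genes and 0.115 over genes of like level. In Lhx2 cKO it was 0.116, below the 0.141 over all genes and above the 0.112 over genes of like level. In control, 2 of the 10 members (Junb and Ier2) exceeded the median over all genes, and in Lhx2 cKO 6 did (Junb, Nr4a1, Dusp1, Ier2, Btg2 and Arc). With TMM the members did not move as a block within a group. In control, 5 were higher in the first library and 5 in the second, and the same split was found in Lhx2 cKO. Over all genes tested, 6616 were higher in the first library and 6672 in the second in control, and 6363 and 6925 in Lhx2 cKO. The split depends on the scaling. With library totals alone the control log2 ratio changed sign for Egr1 (-0.015 to 0.038) and Btg2 (-0.051 to 0.002).

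The widest gaps were those of Junb in control, with a log2 ratio of the second to the first library of -0.34, and of Nr4a1 in Lhx2 cKO, with -0.43. The size of the first ranked at the percentile 84.9 among all genes and that of the second at 91.1. Fos, Egr1 and Fosb were the steadiest of the called members in both groups, with log2 ratios between -0.08 and 0.05. The biological coefficient of variation fitted by edgeR lay between 6.69% (Jun) and 7.52% (Nr4a1) for the members other than Arc and was 18.0% for Arc. Its median was 7.78% over all genes tested and 6.97% over the genes of like level. The fitted values are drawn toward a trend with level, which was at 6.90% for Nr4a1 and 18.6% for Arc. They therefore say little of the gap between a member's own libraries. For comparison, counting alone gave 2.49% to 4.03% for each member other than Arc, taken in the library where that member had its fewest counts.

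**Figure D4:**
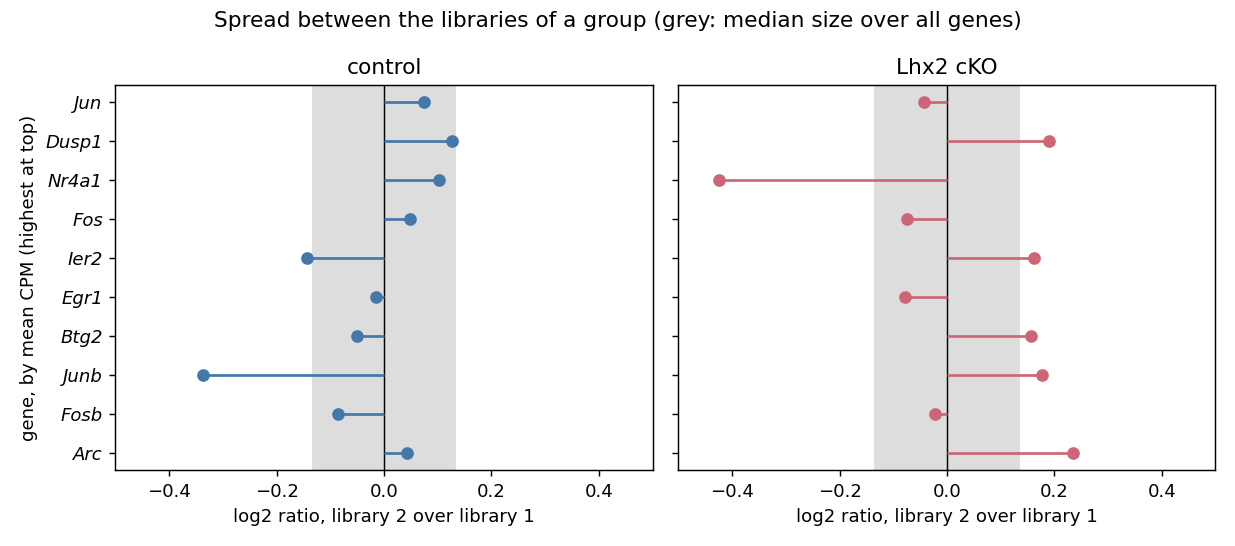
Log2 ratio of library 2 to library 1 for each immediate early gene in control (left) and Lhx2 cKO (right), with genes ordered by mean CPM and grey marking the median absolute ratio over all genes tested (0.133 in control, 0.134 in Lhx2 cKO). Junb at -0.34 in control and Nr4a1 at -0.43 in Lhx2 cKO reach farthest from 0.

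The relatives of the members were taken from lists written from general knowledge, and their calls went in both directions. Counts of calls in these lists stand beside 11.6% of all genes called higher and 9.17% called lower. Of the other AP-1 genes, 5 of 8 were tested, with a median log2 fold change of 0.45. Atf3, a stress-induced partner of JUN, and Jdp2, a repressor of AP-1, were called higher at 1.41 (adjusted p 0.019) and 0.91 (adjusted p 0.0424), and Jund, given above, was called lower. DESeq2 made 0 of these 3 calls (adjusted p 0.055 for Atf3, 0.091 for Jdp2 and 0.163 for Jund). Without control 1 the adjusted p values were 0.151, 0.0514 and 0.142, and without Lhx2 cKO 1 Jund alone was called. Jdp2 was also lost without control 2 (adjusted p 0.253) and without Lhx2 cKO 2 (0.205). Atf3 was also low, at 0.619 and 0.920 CPM in control and 2.46 and 1.65 CPM in Lhx2 cKO.

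Among the other EGR and NR4A genes and the NAB corepressors of EGR proteins, 6 of 7 were tested and 1 was called higher. This was Nr4a2, a nuclear receptor close to Nr4a1, at 17.8 and 18.1 CPM in control and 25.2 and 22.2 CPM in Lhx2 cKO (log2 fold change 0.40, adjusted p 0.0242). The call was lost in DESeq2 (adjusted p 0.0674) and without control 1, control 2 or Lhx2 cKO 1 (adjusted p 0.129, 0.0713 and 0.203). Egr2 (0.11), Egr3 (0.31) and Nr4a3 (0.09 on the log2 scale) did not pass, and all 3 were at 16.7 CPM or lower in every library. Whether the change of Egr1 differed from that of Egr2 or Egr3 was not tested.

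Of 28 other rapidly induced genes, all tested, 6 were called higher and 2 lower, against 11.6% and 9.17% of all genes. Their median log2 fold change was 0.16. The highest by p were Sgk1 (0.83, adjusted p 0.00159), a kinase induced by steroids and stress, Zfp36l1 (0.66, adjusted p 0.00228), which promotes mRNA decay, and Ier3 (0.79, adjusted p 0.00329). Klf6, Arl4d and Plk2 were also called higher, and Tiparp and Ccn1 lower, named after their values were seen. Of 12 alternative fits, Klf6 was called in 11, Tiparp in 10 and Arl4d and Ccn1 in 9 each. Plk2 was called in 6 and lost its call with library totals (adjusted p 0.0704), in DESeq2 (0.0621) and in each fit without a library (0.0595 to 0.261). Arl4d and Ccn1 were lost in DESeq2 (0.0947 and 0.0545) and without control 2 (0.264 and 0.211), Arl4d also without Lhx2 cKO 2 (0.302) and Ccn1 without Lhx2 cKO 1 (0.152). Klf6 was lost without Lhx2 cKO 2 (0.0995), and Tiparp without control 2 (0.121) and Lhx2 cKO 1 (0.161). The count of 8 fell to 4 in DESeq2, 4 without control 2, 5 without Lhx2 cKO 1 and 4 without Lhx2 cKO 2. Zfp36l1 varied within both groups, with 14.9 and 25.7 CPM in control and 38.8 and 25.5 CPM in Lhx2 cKO. Its log2 fold change was 0.31 without control 1 and 0.32 without Lhx2 cKO 1, and it lost its call in both (adjusted p 0.171 and 0.146) and in DESeq2 (0.412). Sgk1 lost its call without Lhx2 cKO 2 (0.0705), and Ier3 without control 1 (0.0596) and without Lhx2 cKO 2 (0.185).

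Genes that neurons switch on with activity were divided. Of 12 listed, 10 were tested, 3 were called higher and 3 lower, with a median of 0.08. Vgf, a secreted neuropeptide precursor, rose from 9.98 and 9.88 CPM to 24.3 and 27.3 CPM (log2 fold change 1.38, adjusted p 6.74e-10). Inhba, the activin subunit, fell by 1.39 on the log2 scale (adjusted p 5.84e-11) and Nrn1, which supports neurite growth, fell by 0.73 (adjusted p 2.09e-06). The other calls, named after their values were seen, were Npas4 and Scg2 (higher) and Nptx2 (lower). Scg2 lost its call without Lhx2 cKO 2 (adjusted p 0.149), and Nptx2 without control 2 (0.212) and without Lhx2 cKO 1 (0.153). Npas4, an immediate early transcription factor induced by calcium entry in neurons, was at 28.8 and 28.0 CPM in control and at 49.2 and 40.5 CPM in Lhx2 cKO. It rose by 0.66 (SE 0.112, adjusted p 1.79e-05) and was called in 12 of 12 alternative fits.

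**Figure D5:**
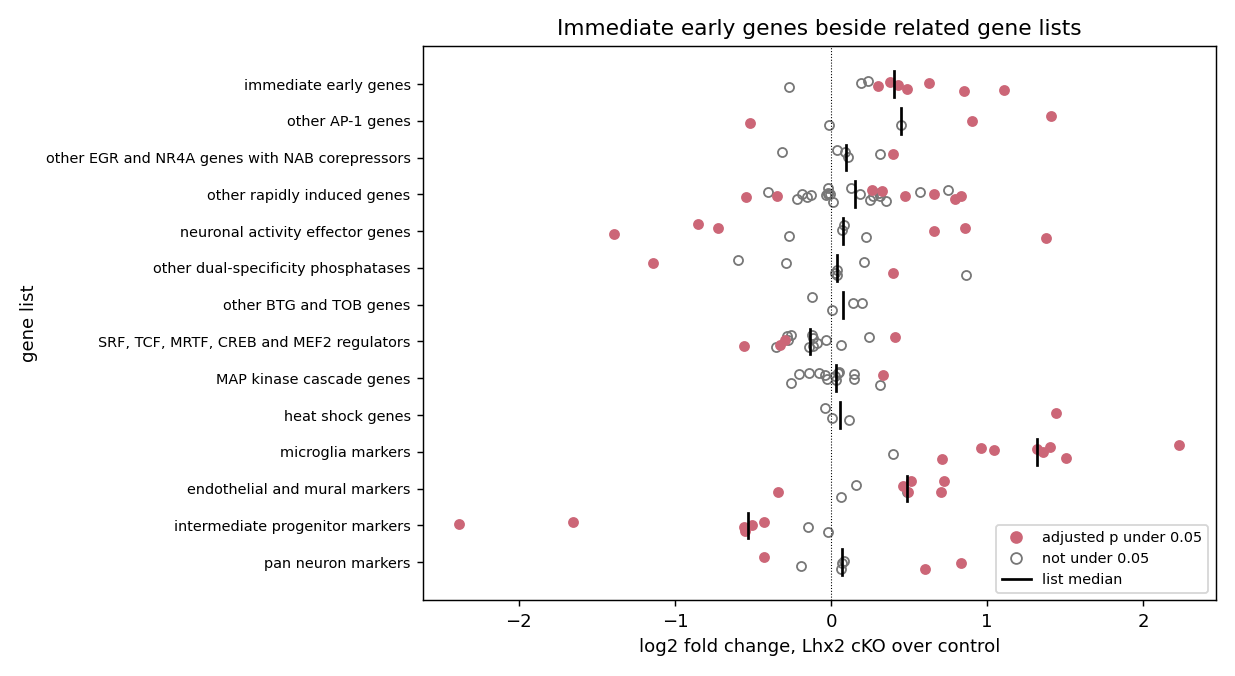
Log2 fold change of Lhx2 cKO over control for each gene of the 10 immediate early genes, 9 related lists and 4 cell type lists, with filled points for an adjusted p under 0.05 and a black bar for the list median. The median of the immediate early genes is 0.40, that of the SRF, TCF, MRTF, CREB and MEF2 regulators -0.13 and that of the microglia markers 1.32.

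Genes that carry the stimulus to the members were read against the 20.8% of all genes called. Of 14 genes of the MAP kinase cascades, 1 was called, Mapk10, the JNK of neurons, at 0.33 (adjusted p 0.0162). Its call was lost without control 1, control 2 or Lhx2 cKO 1 (adjusted p 0.0717, 0.0667 and 0.148). The median over the 14 was 0.03. Of 16 transcriptional regulators of the SRF, TCF, MRTF, CREB and MEF2 families, 1 was called higher and 3 lower, with a median of -0.13 and with 2 calls without control 1 or Lhx2 cKO 2. Mef2c, a factor of maturing neurons, rose by 0.41 (adjusted p 0.00112), while Elk3 (-0.56, adjusted p 0.00727), the coactivator Crebbp (-0.33, adjusted p 0.0117) and, named after its value was seen, Crtc2 (-0.30, adjusted p 0.031) were lower. Elk3 lost its call without control 2 or Lhx2 cKO 1 (0.103 and 0.112), and Crebbp without control 1 or Lhx2 cKO 2 (0.222 and 0.104). Crtc2 lost its call in DESeq2 (0.0635), without control 1 (0.074), without control 2 (0.0694) and without Lhx2 cKO 2, where its log2 fold change was -0.18 (0.436). Srf was at 57.9 and 44.0 CPM in control and at 42.3 and 41.5 CPM in Lhx2 cKO (log2 fold change -0.28, adjusted p 0.0649).

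Relatives of Dusp1 and Btg2 were called in a few cases. Of the 9 other dual-specificity phosphatases tested, Dusp14 fell by 1.14 on the log2 scale (adjusted p 4.12e-06). Dusp6, the ERK phosphatase, was called higher at 0.40 (adjusted p 0.0176), a call lost in DESeq2 (adjusted p 0.0636), without control 1 (0.202) and without Lhx2 cKO 1 (0.239). Of the BTG and TOB genes, edgeR called 0 of the 4 tested, with log2 fold changes from -0.12 to 0.20 and 0 at an unadjusted p under 0.05 (the lowest, of Tob1, was 0.0596), and DESeq2 and limma-voom also called 0. Of the heat shock genes, 4 of 7 were tested and Hspa8, the constitutive chaperone, was called, at 144 and 138 CPM in control and 377 and 392 CPM in Lhx2 cKO (log2 fold change 1.44, adjusted p 4.77e-15). Hspa8 contains small nucleolar RNA genes on its own strand. Exons of Jund, Jdp2, Zfp36l1, Tiparp, Nrn1, Elk3, Eomes, Emx2, Notch1 and Alas2 overlap a gene on the other strand, and without strand the reads of such a pair cannot be told apart. The stress-induced co-chaperones Dnajb1 and Hsph1 were at -0.04 and 0.003 (adjusted p 0.843 and 0.988).

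Markers of several cell types moved in the same comparison, and in bulk tissue fewer cells of a type and less RNA per cell cannot be told apart. Their calls also stand beside 11.6% of all genes called higher and 9.17% called lower. Of 9 microglia markers, 8 were called higher and 0 lower, with a median of 1.32. Their summed level was 117 and 118 CPM in control and 239 and 264 CPM in Lhx2 cKO, with C1qb at 1.36 and C1qc at 1.40 on the log2 scale. Of 9 endothelial and mural markers, 5 were called higher and 1 lower, with summed levels of 246 and 283 CPM in control and 313 and 352 CPM in Lhx2 cKO. All 5 called higher were endothelial. Of the mural markers, named after their values were seen, Rgs5 was the 1 called lower, at -0.34. Pdgfrb (0.06) and Kcnj8 (0.16) did not pass, so the summed level does not show a rise of mural markers. Cldn5 and Cdh5 were at 0.70 and 0.72, and 3 markers of the list were called without control 1 or without Lhx2 cKO 2. Of 8 markers of intermediate progenitors, 6 were called lower and 0 higher. Their summed level was 1064 and 1026 CPM in control and 692 and 698 CPM in Lhx2 cKO, with Eomes at -1.66.

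Of 9 radial glia markers 1 was called higher and 3 lower (Pax6 at -1.24, Notch1 at -0.72), with 2 calls without control 1 or without Lhx2 cKO 2. The radial glia marker called higher was Slc1a3, at 0.27. Of 7 neuron markers 2 were called higher (Syt1 at 0.83, Stmn2 at 0.60), 1 lower (Rbfox3 at -0.43) and 4 did not pass. Among the red blood cell markers below, the 1 called higher was Hbb-y, at 0.49. Slc1a3, Rbfox3 and Hbb-y were named after their values were seen. Of the meningeal fibroblast markers 3 of 5 were tested and Col1a1 was called lower at -3.00. Its Lhx2 cKO libraries were far apart, at 4.44 and 1.65 CPM, against 25.7 and 23.0 CPM in control. The size of that gap ranked at the percentile 99.8 among all genes, so the size of the change is uncertain. Col1a2 (0.25) and Col3a1 (0.20) did not pass and had both Lhx2 cKO libraries above both controls. All 6 red blood cell markers were called, 1 higher and 5 lower (Hbb-bt at -1.01, Alas2 at -0.82), and 2 were called without control 1, where Alas2 was at -0.46 (adjusted p 0.121). In none of these lists was a tested marker at 0 counts in any library. The deposited counts hold no gene with a total under 102, however, so a 0 was unlikely beforehand. The summed level of the 10 immediate early genes was 429 and 428 CPM in control and 590 and 585 CPM in Lhx2 cKO, and the part of the other cell types in it was not tested.

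Over the 4 libraries the mean of the members' centred log2 CPM was -0.20 and -0.23 in control against 0.20 and 0.23 in Lhx2 cKO. Fosb lay nearest to this mean profile, at a Euclidean distance of 0.0551, and Btg2 (0.708) and Fos (0.678) lay farthest. The genes outside the members nearest to it, among those with at least 10 CPM, were Pcdhb22 (0.011), Csf2ra (0.0128), Gfod2 (0.0253), Mapre2 (0.0258) and Prmt2 (0.0271). Csf2ra, a cytokine receptor subunit, was at 65.1 and 64.4 CPM in control and at 85.7 and 87.9 CPM in Lhx2 cKO. Pcdhb22, a protocadherin, lost its call in DESeq2 (adjusted p 0.0595) and in each of the 4 fits without a library. The profile covers 4 libraries only, so the likeness is a description.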

How the data were processed

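Polyadenylated RNA of E15 cortex was sequenced in 2 control and 2 Lhx2 cKO libraries, grouped and numbered by their titles. The deposited table holds raw read counts per gene, made by the authors. Per the submitters' processing notes the tools were Trim Galore, Subread, featureCounts and edgeR and the build mm39. Versions, strand setting and annotation are not given in the sources used here. Its lowest row total is 102 counts, so low rows are absent from the table. The gene length in bases, the log2 fold change, the mean log2 CPM, the p-value, the adjusted p-value and its −log10 are the authors' deposited values, per the file headers.

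The counts were fitted here with edgeR 4.0.16 (R 4.3.3), using TMM, filterByExpr with a minimum of 10 counts (13288 of 13289 genes kept) and the quasi-likelihood test of the 2 groups with no covariate. Each p is two-sided, with Benjamini-Hochberg adjustment over every gene tested, and a call is an adjusted p under 0.05. The SE is the absolute log2 fold change over the square root of F. CPM are TMM-scaled, and RPKM divide them by the deposited length. At this depth 3 counts are 0.122 to 0.135 CPM, and the counting error is the only error such a floor covers. The libraries of a group differed by more than counting noise (chi-square over its degrees of freedom 13.9 and 14.3), and each was kept. On data simulated for this comparison over 13288 genes, 94.0% of 2-fold and 73.0% of 1.5-fold changes were recovered. In that simulation 100 genes changed at each size, the variance followed the trend alone and 12 unchanged genes were called. More genes were called in the real data and their variance may depart from the trend, so the recovery is only a rough guide.

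The members, lists and tests were chosen with earlier results of these data known. Named were Lhx2, all members, up to 3 called genes of each related list with a mean of at least 1 CPM and up to 2 of each marker list by smallest p, and the 5 nearest profiles. Others are said to be named after their values were seen. Overlaps between genes come from GENCODE M21 and promoters from RefSeq GRCm38.p6, from which no coordinates were joined to the counts. Alternatives were RLE and upper-quartile factors, library totals, no filter, a mean count of at least 50, DESeq2 1.42.0, limma-voom (limma 3.58.1), the replicate number as a block, each library left out, and an adjusted p under 0.01.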

Additional observations from a re-analysis of the deposited data

How the results depend on the processing

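None of the 10 members or Lhx2 reversed direction in any of the fits run. Fos, Junb, Egr1 and Fosb were called in 12 of 12 alternative fits, Nr4a1 in 11, Dusp1 in 10 and Ier2 in 8, while Jun, Btg2 and Arc were called in 0. With all libraries, 6 members were called with library totals alone and with DESeq2, where Ier2 was lost, and 7 in the other fits, and 6 were called at an adjusted p under 0.01. That threshold gave 1697 genes in all, 972 higher and 725 lower, fewer by construction. The replicate numbers share only a number (correlation of same-numbered deviations 0.001 across genes), and with the replicate block 2874 genes and 7 members were called.

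Leaving out 1 library left a lone sample that is assumed to vary like the other group. These fits called 5 to 6 members and 1633 to 2396 genes, 865 to 1395 of them higher and 768 to 1079 lower, with the fewest without Lhx2 cKO 2 (1633) and, next, without control 1 (1790). For Lhx2 these fits gave log2 fold changes from -0.38 to -0.25, with the call lost without control 1 (adjusted p 0.176), Lhx2 cKO 1 (0.102) and Lhx2 cKO 2 (0.0538). The median absolute log2 ratio between replicates of the members was 0.099 in control and 0.116 in Lhx2 cKO with library totals in place of TMM, against 0.080 and 0.159. Arc had the fewest counts of the members, with a counting error of up to 17.7% in a library, against 2.49% to 4.03% for the others. How calls change with depth was not tested.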
